A study of Mus musculus with 6 samples.

Results

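Haemoglobin is the protein that fills red blood cells, and 7 genes that mark red cells and their precursors were followed here through the cervical spinal cord of 6 C57BL/6 mice. They were Hba-a1 and Hba-a2, which encode the adult alpha chain, Hbb-bs and Hbb-bt, which encode the adult beta chain, and Alas2, Slc4a1 and Bpgm. They were listed by name as a measure of blood in the dissected cord, with no threshold on their values, and all 7 were found among the 54532 genes listed in every library. The allergic contact dermatitis (ACD) group held 3 mice, which were treated on the shaved nape with 20 µl of 1% squaric acid dibutylester (SADBE), a contact allergen, once a day on 3 days. The control group held 3 mice given acetone, the solvent, in its place. The labels describe an earlier course of 1% SADBE on the shaved abdomen, also on 3 days and 5 days before the challenge. They do not make clear whether the controls had this course as well. No genetic change is named for either group, and the age and sex of the mice are not given in the labels. Each cord gave 1 library, so n is 3 mice in each group. The cords were removed and frozen, and the labels name no rinsing of the blood from the vessels.

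In a circulating red cell, 2 alpha and 2 beta chains each hold a haem group, the iron-bearing ring that binds oxygen. ALAS2 makes the first haem precursor in erythroid cells, SLC4A1 (band 3) exchanges chloride for bicarbonate in the red cell membrane and anchors the skeleton, and BPGM makes the bisphosphoglycerate that lowers the oxygen affinity of haemoglobin. Mature red cells have no nucleus and make no new RNA, and the youngest of them, the reticulocytes, still carry much globin mRNA. In brain and spinal cord, globin mRNA is commonly read as blood left in the vessels, although low globin expression in neurons and glia has also been described. In whole tissue, more cells of a type and more RNA per cell cannot be told apart.

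Levels are in FPKM, the fragments of a gene divided by its exon length and by library size, to allow for both. The FPKM of a library have no fixed total. They summed to 297035 to 313140 in ACD libraries and 279996 to 299956 in control libraries, a difference that comparisons between libraries carry. The library sizes that the values imply were between 17346314 and 20245572 reads in the ACD libraries and between 16916594 and 18583998 in the controls. The tissue label was checked against cord markers. Mbp, a myelin protein of oligodendrocytes, had 2813 to 3369 FPKM in ACD cords and 1892 to 2887 FPKM in control cords, and Gfap, an astrocyte filament protein, 533 to 608 FPKM in ACD cords and 382 to 448 FPKM in control cords. Of the 12 cord markers 2 passed the test described below, Gfap with a log2 fold change of 0.48 ± 0.09 (SE, adjusted p = 0.0332) and Tmem119, a microglial membrane protein, with 0.53 ± 0.10 (adjusted p = 0.0394), and the median of the 12 was 0.22. Of all genes tested, 1.81% were called higher in ACD and 2.53% lower. Control 1 stood apart from the other 5 libraries in genes that were high in it alone. It had 19 genes at least 4-fold above every other library, against 0 to 2 such genes in each of the others. Genes at least 4-fold below every other library numbered 13 to 15 in the ACD libraries and 4 to 8 in the control libraries, so by that count control 1 did not stand apart. Hp and Aqp1, noted after the values were seen, were among the 19 genes of control 1 that lay above every other library. Hp, the plasma haemoglobin scavenger haptoglobin, had 37.7 FPKM in control 1 against at most 1.84 elsewhere. The water channel Aqp1 had 11.9 FPKM in control 1 against at most 0.758 elsewhere. Control 1 also had the lowest value of all 7 haemoglobin and erythroid genes, so their fold changes are given with and without it.

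The coding sequences of the paralogous globin genes are printed first because they set how well the genes can be told apart. Between Hba-a1 and Hba-a2 the 426 coding bases differ only at C381T, counted from 1 at the A of the start codon, with the Hba-a1 base first. Between Hbb-bs and Hbb-bt the 441 coding bases differ only at C417T, with the Hbb-bs base first. Neither change alters the encoded amino acid. The stretches of 49 coding bases around these positions, from GRCm38 and on the coding strand, are given with the differing base in capitals, for Hba-a1 (chr11:32284319-32284367, plus strand), Hba-a2 (chr11:32297136-32297184, plus strand), Hbb-bs (chr7:103826668-103826716, minus strand) and Hbb-bt (chr7:103812659-103812707, minus strand).
Hba-a1: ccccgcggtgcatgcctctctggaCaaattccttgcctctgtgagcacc
Hba-a2: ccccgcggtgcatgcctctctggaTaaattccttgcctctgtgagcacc
Hbb-bs: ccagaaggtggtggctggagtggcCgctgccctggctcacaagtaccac
Hbb-bt: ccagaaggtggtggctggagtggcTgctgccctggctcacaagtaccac
Of all runs of 50 bases in the exons of Hba-a2, 89.3% also occur in Hba-a1, and of those of Hba-a1, 72.3% occur in Hba-a2. For Hbb-bs the share also present in Hbb-bt was 53.2%, and for Hbb-bt the share also present in Hbb-bs was 58.3%. Reads from these stretches cannot be given to one gene by sequence, and how such reads were counted is not given in the sources used here. The division between paralogs is therefore uncertain. The chain sums depend less on that division, but they would also be too low if shared reads were left out of the count. Slc4a1 and Bpgm shared no run of 50 bases with another gene. Alas2 shared 11.5%, nearly all with Apex2, a DNA repair gene on the opposite strand whose exons overlap those of Alas2 by 311 bases, and reads of that stretch cannot be told apart if counting ignored strand.

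The promoters of 6 of the 7 genes were in the RefSeq promoter table (GRCm38.p6), and the 150 bases before each RefSeq start are shown because members of the set moved together to different degrees. Hba-a1 and Hba-a2 share 297 bases of their 300-base windows as an identical run offset by 3 bases, so only Hba-a2 is printed (chr11:32296342-32296491, plus strand), with Hbb-bs (chr7:103827929-103828078, minus strand), Hbb-bt (chr7:103813924-103814073, minus strand), Alas2 (chrX:150547267-150547416, plus strand) and Bpgm (chr6:34476206-34476355, plus strand). Capitals mark the CCAAT box, the CACCC box, the TATAA box and the words of GATA factors, which are AGATAA or AGATAG and TGATAA or TGATAG, each searched on both strands with no overlaps found.
Hba-a2: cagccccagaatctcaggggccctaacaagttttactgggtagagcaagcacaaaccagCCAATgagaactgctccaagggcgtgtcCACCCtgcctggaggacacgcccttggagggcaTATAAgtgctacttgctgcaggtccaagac
Hbb-bs: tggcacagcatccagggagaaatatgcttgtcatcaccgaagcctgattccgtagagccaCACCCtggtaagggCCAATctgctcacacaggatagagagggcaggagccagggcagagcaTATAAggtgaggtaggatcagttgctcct
Hbb-bt: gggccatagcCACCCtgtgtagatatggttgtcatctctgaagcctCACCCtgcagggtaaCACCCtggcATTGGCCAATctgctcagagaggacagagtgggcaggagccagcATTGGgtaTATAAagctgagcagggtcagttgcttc
Alas2: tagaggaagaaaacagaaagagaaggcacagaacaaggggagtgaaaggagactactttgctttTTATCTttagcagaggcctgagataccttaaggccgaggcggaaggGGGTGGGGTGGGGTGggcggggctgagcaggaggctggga
Bpgm: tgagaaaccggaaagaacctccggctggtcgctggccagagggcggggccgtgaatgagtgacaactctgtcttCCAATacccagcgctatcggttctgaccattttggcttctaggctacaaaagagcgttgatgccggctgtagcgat
All 4 globin windows held the CCAAT, the CACCC and the TATAA box together, as did 1.10% of the 32851 mouse promoter windows of this length. Their TATAA began between 27 and 30 bases before the start. CCAAT alone was in 24.5% of all windows, CACCC in 37.4%, TATAA in 14.2% and a GATA word in 16%. The Alas2 window held 3 CACCC on the opposite strand and a GATA word but no TATAA, and the Bpgm window held a CCAAT only. In their aligned bases Hbb-bs and Hbb-bt were identical at 109 and different at 39. These matches describe letters in a window and say nothing of what binds there.

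The comparison asked whether the cords of mice with inflamed nape skin held more or less of the transcripts of red cells than control cords. Hba-a1, Hbb-bs, Hbb-bt and Alas2 lay above all 3 controls in all 3 ACD libraries, by 2.88, 3.30, 1.87 and 1.95-fold on the log2(FPKM + 0.1) scale, yet none of the 7 genes passed the test over all genes. The test was limma on log2(FPKM + 0.1) with Benjamini-Hochberg adjustment over the 21369 genes tested, at an adjusted p of 0.05. It called 4.34% of all genes in either direction. An unadjusted p under 0.05 was reached by 3 of the 7 (Hba-a1, Hbb-bs and Alas2), as it was by 22.3% of all genes. Among all genes, 28.6% had groups that did not overlap, 13.1% with ACD above and 15.5% with ACD below, and the 4 of 7 stand beside these shares. The median log2 fold change of the 7 was 0.91, against -0.01 for all genes tested, and without control 1 it was 0.34.

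Hba-a1 (ENSMUSG00000069919, GRCm38 chr11:32283511-32284465, plus strand) was the most abundant of the 7. It had 254, 416 and 339 FPKM in ACD libraries 1 to 3, against 52.9, 132 and 214 FPKM in control libraries 1 to 3. These rest on 3580, 6833 and 5031 recovered reads in ACD and 727, 1987 and 3007 in control. The groups did not overlap, but the distance between the highest control and the lowest ACD library was small beside the 4.03-fold range within the controls. The means were 336 ± 80.8 FPKM in ACD and 133 ± 80.3 FPKM in control (SD, n = 3 each), a log2 fold change of 1.53 ± 0.48 (SE) with a 95% interval of 0.37 to 2.68 and an adjusted p of 0.131. Without control 1 the log2 fold change was 0.97.

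Hba-a2 (ENSMUSG00000069917, chr11:32296489-32297298, plus strand), the neighbouring alpha gene, rose in step with Hba-a1 across the controls but did not follow it in the ACD libraries. It had 25.7, 24 and 18.1 FPKM in ACD libraries 1 to 3, against 13.6, 28.7 and 47.2 FPKM in control libraries 1 to 3. The ACD libraries lay inside the range of the controls, and the highest value was in control 3. The means were 22.6 ± 3.97 FPKM in ACD and 29.8 ± 16.8 FPKM in control (SD, n = 3 each), a log2 fold change of -0.24 ± 0.42 with a 95% interval of -1.25 to 0.77 and an adjusted p of 0.779. Its sign depended on which control was left out, at -0.72 without control 1 and 0.18 without control 3.

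Hbb-bs (ENSMUSG00000052305, chr7:103826534-103828096, minus strand), the more abundant beta gene, showed the widest span of the 7. It had 166, 288 and 170 FPKM in ACD libraries 1 to 3, against 24.6, 91.5 and 100 FPKM in control libraries 1 to 3, so that the highest library held 11.7 times the lowest. The groups did not overlap, and ACD 1 and ACD 3 were nearly level. The means were 208 ± 69.2 FPKM in ACD and 72.1 ± 41.4 FPKM in control (SD, n = 3 each), a log2 fold change of 1.72 ± 0.55 with a 95% interval of 0.42 to 3.02 and an adjusted p of 0.131. Without control 1 it was 1.07.

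Hbb-bt (ENSMUSG00000073940, chr7:103812524-103813996, minus strand), its paralog, moved in the same direction by less. It had 28.9, 35.7 and 24.1 FPKM in ACD libraries 1 to 3, against 7.06, 23.2 and 22.8 FPKM in control libraries 1 to 3. ACD 3 lay just above controls 2 and 3, so the separation of the groups was narrow there. The means were 29.6 ± 5.82 FPKM in ACD and 17.7 ± 9.20 FPKM in control (SD, n = 3 each), with a log2 fold change of 0.91 ± 0.46, a 95% interval of -0.18 to 1.99 and an adjusted p of 0.298. Without control 1 it was 0.34.

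Alas2 (ENSMUSG00000025270, chrX:150547375-150570638, plus strand), the erythroid enzyme of haem synthesis, had 6.17, 9.06 and 6.78 FPKM in ACD libraries 1 to 3, against 2.02, 4.50 and 5.38 FPKM in control libraries 1 to 3. The groups did not overlap, and ACD 2 was the highest library, as for Hba-a1, Hbb-bs and Hbb-bt. The means were 7.34 ± 1.53 FPKM in ACD and 3.96 ± 1.74 FPKM in control (SD, n = 3 each), with a log2 fold change of 0.96 ± 0.35, a 95% interval of 0.12 to 1.81 and an adjusted p of 0.177. Without control 1 it was 0.55.

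Slc4a1 (ENSMUSG00000006574, chr11:102348824-102366203, minus strand), the band 3 anion exchanger, was the lowest of the 7. It had 0.448, 0.677 and 0.615 FPKM in ACD libraries 1 to 3, against 0.0846, 0.792 and 0.342 FPKM in control libraries 1 to 3. The control libraries enclosed the ACD libraries, and the value of control 1 rests on 7 reads. The log2 fold change was 0.69 ± 0.54 with a 95% interval of -0.58 to 1.96 and an adjusted p of 0.509, and it was 0.10 without control 1 and 1.24 without control 2.

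Bpgm (ENSMUSG00000038871, chr6:34476207-34505613, plus strand), the bisphosphoglycerate mutase, hardly varied between libraries. It had 33.5, 30.6 and 32.5 FPKM in ACD libraries 1 to 3, against 24.4, 31.5 and 27.1 FPKM in control libraries 1 to 3, a highest library 1.38 times the lowest. Control 2 lay above ACD 2, so the groups overlapped. The log2 fold change was 0.22 ± 0.10 with a 95% interval of -0.01 to 0.46 and an adjusted p of 0.240, and it was 0.14 without control 1.

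**Figure D1:**
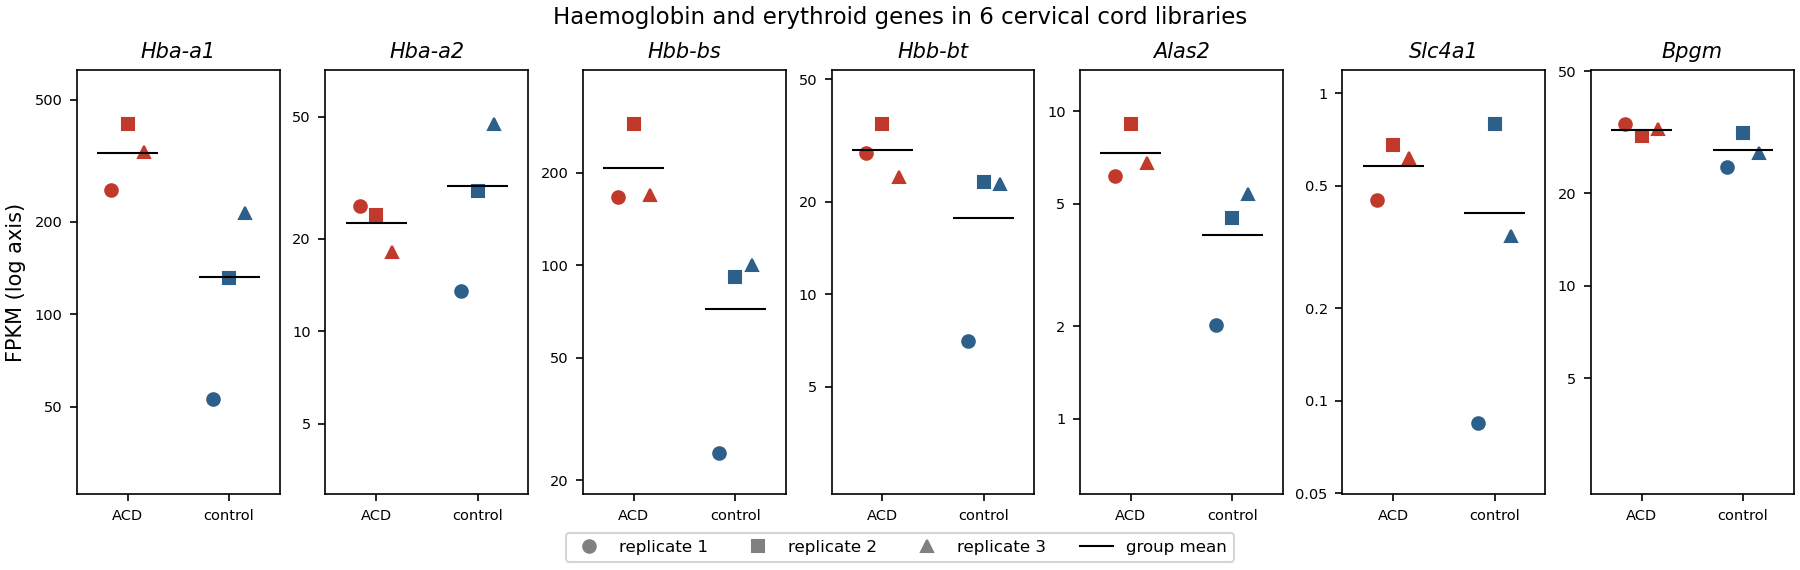
FPKM of each of the 7 genes on a logarithmic axis (every panel spans the same fold range) in the 3 ACD and the 3 control libraries, with marker shapes for the replicate number and a line at the group mean. Hba-a1, Hbb-bs, Hbb-bt and Alas2 lie above every control in every ACD library, Hba-a2, Slc4a1 and Bpgm overlap, and control 1 is the lowest library in all 7 panels.

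The size of the differences moved with the choice of control libraries more than with any ACD library for most genes, as the plot of fold changes with 1 library left out shows. With control 1 left out, 6 of the 7 log2 fold changes were nearer to 0 and that of Hba-a2 was further from it. The 4 genes with separate groups kept a positive log2 fold change whichever library was left out, of at least 0.97 for Hba-a1, 1.07 for Hbb-bs, 0.34 for Hbb-bt and 0.55 for Alas2. No adjusted p fell below 0.05 in any of these fits, the smallest being 0.0621 for Hba-a1 without control 3.

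**Figure D2:**
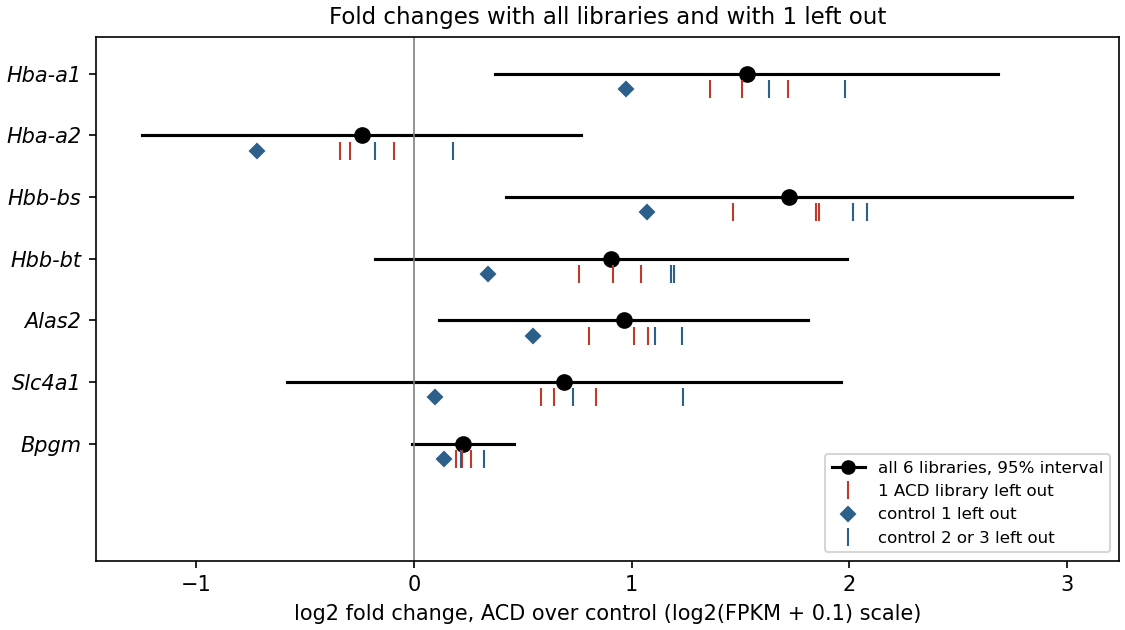
Log2 fold change of each gene, ACD over control, on the log2(FPKM + 0.1) scale, with its 95% interval from limma (black), and below it the value with 1 ACD library (red ticks), control 1 (blue diamond) or control 2 or 3 (blue ticks) left out. The intervals of Hba-a1, Hbb-bs and Alas2 lie above 0 before adjustment, and leaving out control 1 gives the lowest value for every gene.

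Summed over the 4 globin genes, haemoglobin was 475, 763 and 551 FPKM in ACD libraries 1 to 3, against 98.1, 275 and 384 FPKM in control libraries 1 to 3. These sums made up 0.0348% to 0.0565% of the recovered reads of an ACD library and 0.00777% to 0.0290% of those of a control library. The ACD mean was 2.36 times the control mean, at 596 ± 149 against 252 ± 144 FPKM (SD, n = 3 each), and between 1.81 times without control 1 and 3.20 times without control 3. Alpha chains exceeded beta chains in every library, by 1.43, 1.36 and 1.84 times in ACD and 2.10, 1.40 and 2.12 times in control. The alpha-to-beta proportion overlapped between the groups. The alpha genes share more of their sequence than the beta genes do, so this proportion and the sums also depend on how shared reads were counted.

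The proportions between paralogs were also separate between the groups. Hba-a2 made up 9.17%, 5.46% and 5.08% of the alpha-chain FPKM in ACD libraries 1 to 3, against 20.4%, 17.9% and 18.1% in control libraries 1 to 3. The group means were 6.57% ± 2.26 in ACD and 18.8% ± 1.38 in control (SD, n = 3 each), and the gap between the groups was wider than the range within either. Hba-a1 was thus 9.90 to 18.7 times Hba-a2 in ACD libraries and 3.90 to 4.58 times in control libraries. Among the beta chains, Hbb-bt made up 14.8%, 11% and 12.4% in ACD libraries 1 to 3, against 22.3%, 20.2% and 18.5% in control libraries 1 to 3. The means were 12.8% ± 1.89 in ACD and 20.4% ± 1.91 in control, again with no overlap. Control 1, the lowest library in level, had the highest value of both proportions, and the groups are separate without it as well. These proportions were described per library and not tested, and they rest on genes that share much of their sequence, so a change in how shared reads were divided and a change in the transcripts cannot be told apart.

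Relative to haemoglobin, the other erythroid genes were not constant. Alas2 had 13.0, 11.9 and 12.3 FPKM per 1000 FPKM of haemoglobin in ACD libraries 1 to 3, against 20.6, 16.4 and 14.0 in control libraries 1 to 3. The 3 ACD libraries were close together and below every control. Slc4a1 had 0.943, 0.887 and 1.12 FPKM per 1000 of haemoglobin in ACD, against 0.862, 2.88 and 0.891 in control, where control 2 alone was high. Bpgm had 70.6, 40.1 and 58.9 per 1000 in ACD, against 249, 115 and 70.7 in control, so its level did not scale with that of haemoglobin.

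**Figure D3:**
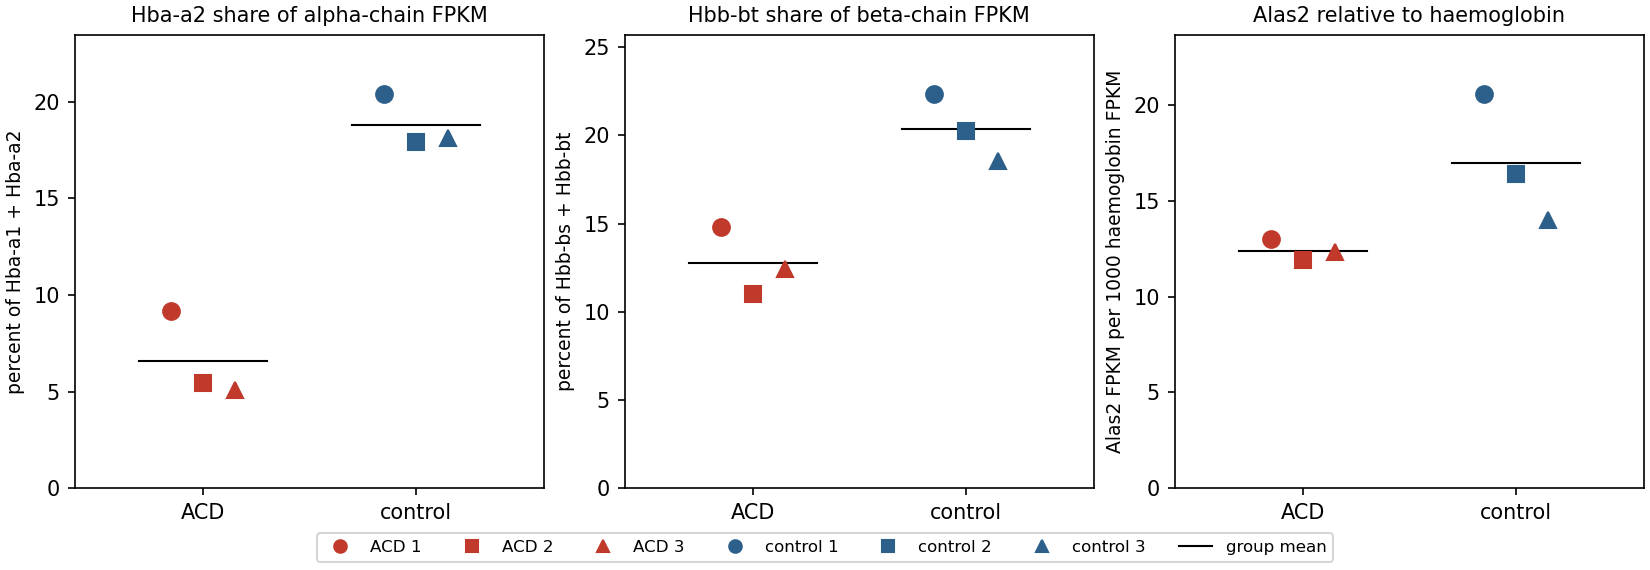
Hba-a2 as a percentage of the alpha-chain FPKM, Hbb-bt as a percentage of the beta-chain FPKM and Alas2 FPKM per 1000 FPKM of summed haemoglobin (vertical axes, from 0) in the 3 ACD and 3 control libraries, with a line at the group mean. The ACD libraries are below the control libraries in all 3 panels, with the widest gap for Hba-a2, at 5.08% to 9.17% in ACD and 17.9% to 20.4% in control.

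The profiles of the 7 genes over the 6 libraries were set against that of summed haemoglobin as the root mean square difference of centred log2(FPKM + 0.1) values. A gene with no variation would differ by 0.95. Hba-a1 differed by 0.11, Hbb-bs by 0.21, Alas2 by 0.29, Hbb-bt by 0.33 and Slc4a1 by 0.58, while Bpgm differed by 0.83 and Hba-a2 by 0.88. The 2 globin genes with the smallest differences also supply most of the sum. The 8 other genes with the most similar profiles were sought over the 13644 genes averaging 1 FPKM or more. They were Gm15610, Gm21378, Gm6166, mt-Nd4l, Gm15682, Rps27, Gm4829 and Isg15, at 0.22 to 0.45. All 8 were farther than Hba-a1 and Hbb-bs but nearer than Slc4a1, Bpgm and Hba-a2. Gm15610 was also nearer than Alas2, and Gm15610, Gm21378 and Gm6166 were nearer than Hbb-bt. The profile was thus not particular to the erythroid genes. Of these 8, 5 are annotated as processed pseudogenes, and all 5 rest on fewer than 100 reads in every library. Pseudogenes of any type made up 4.46% of the genes compared. mt-Nd4l, a mitochondrial subunit of complex I, had 204, 352 and 243 FPKM in ACD, against 48.2, 62.9 and 169 FPKM in control. Rps27, a protein of the small ribosomal subunit, had 131, 106 and 113 FPKM in ACD, against 23.8, 34.4 and 70.8 FPKM in control. Isg15, an interferon-induced ubiquitin-like protein, had 5.57, 8.89 and 8.10 FPKM in ACD, against 2.03, 3.56 and 2.82 FPKM in control, and was the only 1 of the 8 to pass the test, with a log2 fold change of 1.40 ± 0.24 and an adjusted p of 0.0274. This is a likeness over 6 libraries and was given no p.

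Other globin genes were low or had values outside the erythroid pattern. The embryonic beta-like genes Hbb-bh0, Hbb-bh1, Hbb-bh2 and Hbb-bh3 were at 0 reads in all 6 libraries, and embryonic Hba-x and Hbb-y had at most 1 and 4 reads. Of the 11 listed globins 5 were tested and 0 passed, with a median log2 fold change of -0.02. Cygb, cytoglobin, a globin of fibroblast-like and neural cells, had 34.5 to 40.1 FPKM in ACD cords and 27.8 to 35.6 FPKM in control cords. Its log2 fold change was 0.19 ± 0.11 (adjusted p = 0.351). Ngb, the neuronal neuroglobin, had 2.64 to 3.78 FPKM in ACD and 2.41 to 3.62 FPKM in control (log2 fold change -0.02 ± 0.19, adjusted p = 0.963).

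Of 18 listed genes of the red cell membrane and skeleton, 13 were tested and 0 passed, with a median log2 fold change of 0.07. The abundant members Ank1, Sptb and Add2, skeleton proteins that neurons also make, had log2 fold changes of 0.07 ± 0.11, 0.04 ± 0.10 and 0.06 ± 0.09. Epb41, protein 4.1, came nearest to the threshold at -0.40 ± 0.10 (adjusted p = 0.0747).

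Of 15 genes of haem synthesis and erythroid iron import, all tested, 0 were higher and 1 was lower in ACD. The shares of all genes called, 1.81% higher and 2.53% lower, stand beside this count and those of the lists below. Slc25a37 (mitoferrin 1), which carries iron into mitochondria of erythroid precursors, fell to 4.14, 3.99 and 3.87 FPKM in ACD libraries 1 to 3, against 5.0, 5.39 and 5.66 FPKM in control libraries 1 to 3, a log2 fold change of -0.41 ± 0.08 with an adjusted p of 0.0386. The direction is opposite to that of Alas2. Fech, which inserts the iron into haem, had a log2 fold change of 0.06 ± 0.07 (adjusted p = 0.663), and Tfrc, the transferrin receptor, -0.24 ± 0.14 (adjusted p = 0.376). Glrx5, which takes part in building iron-sulphur clusters, was at 0.44 ± 0.10 (adjusted p = 0.0523).

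Regulators of red cell formation were mostly at the limit of detection or shared with other cells. Gata1 and Klf1, transcription factors of erythroid precursors, had 1 to 3 and 2 to 4 reads in ACD libraries and 0 to 3 and 2 to 5 reads in control libraries. Of the 18 listed, 17 were in the files and 15 were tested, with 1 higher, 0 lower and a median log2 fold change of -0.06. The gene that passed was Isg20, an interferon-induced RNA exonuclease that is also listed among genes of late erythroid cells, at 1.55, 1.91 and 1.68 FPKM in ACD, against 0.763, 1.01 and 0.589 FPKM in control (log2 fold change 1.05 ± 0.20, adjusted p = 0.0384). It rests on 19 to 72 reads. Bnip3l, which removes mitochondria from maturing red cells and is expressed in many tissues, was at 0.00 ± 0.10 (adjusted p = 0.991).

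Of 15 tested genes of red cell glycolysis, carbonic anhydrases and antioxidant enzymes, 1 passed, upwards, and 13 had a positive log2 fold change, with a median of 0.18. Prdx2, a peroxiredoxin abundant in red cells and in neurons, rose to 67.5, 67.5 and 66.8 FPKM in ACD libraries 1 to 3, against 49.8, 57.5 and 51.3 FPKM in control libraries 1 to 3 (log2 fold change 0.35 ± 0.07, adjusted p = 0.0446). It varied far less between libraries than haemoglobin did. Car2, carbonic anhydrase 2, which oligodendrocytes also make, was at -0.10 ± 0.10 (adjusted p = 0.590). Of the 12 genes that clear haemoglobin and haem or store iron, 1 passed: Ftl1, the ferritin light chain, rose to 87.2, 89.1 and 98.9 FPKM in ACD libraries 1 to 3, against 59.6, 59.2 and 55.0 FPKM in control libraries 1 to 3 (log2 fold change 0.66 ± 0.07, adjusted p = 0.00955). Among controls Ftl1 did not follow haemoglobin, since control 1 was level with control 2. Fth1, the ferritin heavy chain, was at 0.13 ± 0.13 (adjusted p = 0.594), and Hmox2, a constitutive haem oxygenase, at 0.24 ± 0.07 (adjusted p = 0.108).

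Markers of other blood cells were read beside haemoglobin because residual blood would bring them as well, and their part in the haemoglobin values was not tested. The 14 neutrophil markers, all tested, summed to 104 to 134 FPKM in ACD cords, against 32.7, 121 and 31.4 FPKM in control libraries 1 to 3. None passed, 13 had a positive log2 fold change and the median was 1.17. S100a8, a calcium-binding protein of neutrophils, had 36.5, 31.0 and 42.1 FPKM in ACD, against 8.43, 26.1 and 6.73 FPKM in control (log2 fold change 1.66 ± 0.48, adjusted p = 0.106). The neutrophil sum of control 2 lay within the range of the ACD libraries, and its single markers lay on either side of them. S100a8 lay below all ACD libraries, as did Mpo, the marker with the smallest p (0.157 FPKM against 0.346 to 0.354). S100a9, the most abundant marker, lay above all of them (55.9 FPKM against 44.1 to 54.2), as did Camp (8.02 against 4.82 to 6.71). Ngp lay inside their range (12.3 FPKM against 9.46 to 14.4). ACD 2, the highest library in haemoglobin, had the lowest neutrophil sum of the 3 ACD libraries. The 10 blood monocyte markers summed to 25.4 to 31.3 FPKM in ACD and 18.5 to 25.9 FPKM in control, with 9 tested, 0 passing, 7 positive log2 fold changes and a median of 0.54. Fn1, fibronectin, which other cells also make, was the largest part of that sum in every library. Ly6c2, of inflammatory monocytes, was at 0.968, 1.05 and 1.40 FPKM in ACD, against 0.0647, 0.805 and 0.210 FPKM in control (log2 fold change 1.77 ± 0.57, adjusted p = 0.132).

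Platelets also lack a nucleus and circulate with red cells. Their 14 markers summed to 7.89 to 8.58 FPKM in ACD and 6.32 to 7.44 FPKM in control, with 9 tested, 0 passing and a median log2 fold change of -0.04. Pf4, platelet factor 4, had 3.20, 2.19 and 3.72 FPKM in ACD, against 3.36, 1.42 and 1.84 FPKM in control (adjusted p = 0.415). The platelet marker with the smallest p was Gp9, with a log2 fold change of 1.42 ± 0.45 (adjusted p = 0.126). It had 1.05, 0.617 and 0.434 FPKM in ACD, against 0.0671, 0.366 and 0.196 FPKM in control, on 1 to 16 reads. Of the 9 platelet markers tested, 4 had a positive log2 fold change. Of 15 T and NK cell markers 6 were tested, of 10 B and plasma cell markers 7 and of 12 endothelial markers 12, and 0 passed in each list. Gzma, a granzyme of cytotoxic lymphocytes, had 0.745, 0.589 and 0.435 FPKM in ACD, against 0.0588, 0.267 and 0.0573 FPKM in control (log2 fold change 1.69 ± 0.41, adjusted p = 0.0655). It rests on 8 to 13 reads in ACD and 1 to 5 in control. The most abundant T and NK cell markers, Trac and Trbc2, had log2 fold changes of 0.02 ± 0.31 and 0.03 ± 0.34 (adjusted p = 0.979 and 0.973). The endothelial sum was 164 to 230 FPKM in ACD and 159 to 177 FPKM in control, with a median log2 fold change of -0.13. Over all genes, 1.81% were called higher and 2.53% lower. The B and plasma cell markers summed to 30.7 to 38.0 FPKM in ACD and 20.2 to 34.2 FPKM in control, with a median log2 fold change of 0.15. The T and NK cell markers summed to 4.01 to 6.01 FPKM in ACD and 3.87 to 4.66 FPKM in control. All 6 tested had a positive log2 fold change, with a median of 0.69, but the filter of 0.1 mean FPKM bears on both. Cd8b1 and Nkg7, with control means of 0.0130 and 0.0818 FPKM, passed it only through the ACD libraries (means of 0.231 and 0.334 FPKM). No conclusion is drawn from these signs or this median.

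**Figure D4:**
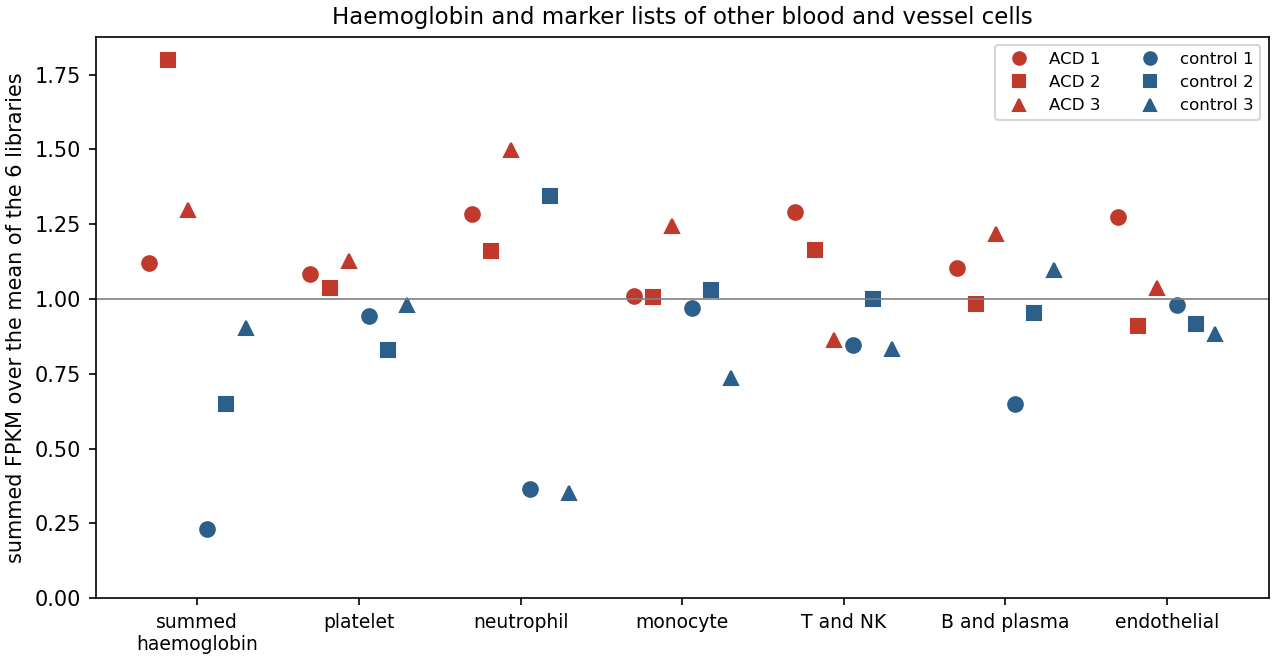
Summed FPKM of haemoglobin and of 6 marker lists of other blood cells and of endothelium in each library, divided by the mean of the 6 libraries (vertical axis, from 0), with ACD libraries in red and control libraries in blue. Haemoglobin has the widest spread, neutrophil markers are low in controls 1 and 3 but not in control 2, and platelet, monocyte and endothelial sums stay closer to 1.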

How the data were processed

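RNA of 6 cervical cords (3 ACD, 3 control, grouped by the sample descriptions) was read from 1 deposited FPKM table per library, made by the authors. Per the submitters' processing notes, the build was mm10 and the tools included DESeq2 1.16.1, featureCounts 1.5.0-p3 and HISAT2 2.0.5, with no roles given. No source used here says how strand and reads that match several genes were treated. Multiplying FPKM by GENCODE M21 exon length and a library denominator gave whole reads, within 0.05, for 96.9% of values above 0, and these recovered reads give the depth behind a value. Symbols matched 54409 of 54532 identifiers.

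The 21369 genes that averaged 0.1 FPKM or more were fitted with limma 3.58.1 in R 4.3.3 (trend and robust settings) on log2(FPKM + 0.1), ACD minus control, with Benjamini-Hochberg adjustment over all of them. Named were all 7 genes and, of each of 13 other lists, any that passed, the most abundant and the one with the smallest p, although not all of these are printed. Members and lists were chosen with earlier results of these data known. Lists were described by counts and medians, with no set test. Each library is 1 mouse per the labels, and p-values measure only the spread between these mice.

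On simulated data made from these libraries, the fit called more unchanged genes than its nominal rate, nearly all of them genes with under 10 mean reads. A fit limited to genes with at least 10 mean reads was added after seeing the data. It met the limit set on the share of unchanged genes among its calls, a limit looser than the nominal rate. All 7 genes have more than 10 reads on average. Alternatives were the pseudocount, the filter, TPM and median scaling, a length and GC trend, voom on recovered reads, a replicate block and leaving out each library. The replicate numbers do not pair the samples.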

Additional observations from a re-analysis of the deposited data

How the results depend on the processing

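None of the 7 genes passed under any alternative run, and 6 of them kept their direction in all. Hba-a2 had a log2 fold change of -0.72 without control 1 and 0.18 without control 3, and the cause was not tested. Slc4a1 has no value under a filter of at least 1 FPKM. Among all genes, 927 passed (386 higher, 541 lower in ACD), against 556 with no filter on low values, 1690 with voom on recovered reads and 180 to 627 with 1 library left out. With the replicate number as a block 181 passed and 0 of the 7 genes, the correlations of same-numbered samples being -0.03 to 0.01. Among genes with at least 10 mean reads, chosen after seeing the data, 1218 of 16748 passed (572 higher, 646 lower). TPM scaling gave 205 higher and 695 lower, with the median of all genes at -0.10 and that of Hba-a1 at 1.43, and put summed haemoglobin at a mean of 1939 TPM in ACD and 877 TPM in control, since the unit differs. Of the other named genes, Ftl1 passed in 15 of its 16 alternatives, Isg15 in 12, Slc25a37, Isg20 and Gfap in 8, Tmem119 in 7 and Prdx2 in 5. Leaving out any 1 of the 6 libraries ended the call of Slc25a37, and leaving out any but control 2 ended those of Isg20, Prdx2 and Gfap. Tmem119 lost its call without any library but control 3, and Isg15 without ACD 2, ACD 3, control 1 or control 3. Ftl1 kept its call with each library left out. Depth limits Slc4a1, Gata1, Klf1, Gp9 and Gzma, where a few reads set a value.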
